A study of Mus musculus with 16 samples.

Results

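The 44 genes described here encode the core machinery of DNA replication in mouse embryonic fibroblasts, connective tissue cells of the embryo grown in culture. They were taken from a list of named genes: 8 of origin licensing, 6 of the MCM2-7 helicase, 7 of helicase activation, the 2 E-type cyclins, 9 polymerase and primase subunits, 6 of the sliding clamp and its loader, 2 that join Okazaki fragments, 3 of nucleotide supply and the helicase paralogue Mcm8. A gene was represented by a probe set annotated with its symbol alone, and, where it had several, by the brightest of them on average. All 44 were measured, out of 19938 genes tested. Pcna alone had a second probe set, whose mean differences lay within 0.01 of the first.

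Total RNA of 16 plates was hybridised to Affymetrix whole-transcript arrays, 1 array per plate, in 4 groups of 4. The groups were cells with a stable short hairpin RNA against Atf5 and with MG132, the same knockdown cells with vehicle, control cells with MG132 and control cells with vehicle. Control cells were wild type with a scramble hairpin, so both lines carried a hairpin. MG132, a peptide aldehyde that blocks the proteasome, was given at 1 µM for 8 h, and the vehicle was DMSO. Atf5 encodes a basic leucine zipper transcription factor, and the question of the study was which MG132-responsive genes depend on it. The sources used here do not say whether a line is 1 clone or which hairpin was used. The labels do not say that the plates were separate cultures, so each p-value speaks only of the spread among these samples, and that spread may be technical.

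Values are the deposited log2 intensities, and differences between groups are log2 differences with the limma standard error. A gene was called where its adjusted p (limma, Benjamini-Hochberg over all 19938 genes) was under 0.05. Atf5 read 8.45, 8.43, 8.45 and 8.49 in knockdown cells with MG132, 8.32, 8.39, 8.28 and 8.41 in knockdown cells with vehicle, 8.75, 8.72, 8.68 and 8.91 in control cells with MG132 and 8.68, 8.51, 8.46 and 8.62 in control cells with vehicle. Under both treatments all 4 knockdown arrays read lower than all 4 control arrays, with differences of -0.31 ± 0.05 with MG132 and -0.22 ± 0.05 with vehicle (limma adjusted p = 0.000148 and 0.00321). Without 4 arrays at the low end of a gradient inside the groups, the vehicle difference of Atf5 was -0.12 and was not called (limma adjusted p = 0.0511). Of 10 fibroblast markers 8 lay above the median of all genes, and their array means ranged from 9.90 to 9.97 in knockdown cells with MG132, 10.11 to 10.17 in knockdown cells with vehicle, 9.73 to 9.74 in control cells with MG132 and 9.98 to 10.00 in control cells with vehicle. Of 26 markers of macrophages, endothelium, epithelium, skeletal muscle and neurons 4 lay above that median. The 5 neuronal markers ranged from 7.73 to 7.84, 7.53 to 7.65, 8.23 to 8.29 and 8.01 to 8.12 in the groups in the same order. The part of the markers in the results below was not tested. In these bulk samples, fewer cells in S phase and less RNA per cell cannot be told apart.

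Replication starts where the origin recognition complex marks DNA and Cdc6 and Cdt1 load the MCM2-7 ring, a step called licensing that is open only while cyclin-dependent kinase activity is low. Cyclin E with its kinase and the Cdc7 kinase then help turn the ring into the active helicase with Cdc45 and the GINS complex. Polymerase alpha with primase starts each strand, polymerases epsilon and delta extend it, Pcna clamps them to DNA, replication factor C loads the clamp, and Fen1 and Lig1 finish the lagging strand. Many of these genes are induced together by E2F transcription factors as cells enter S phase. Cdt1 and cyclin E are also degraded by the proteasome, which concerns their proteins and was not measured here.

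Promoter windows of RefSeq (GRCm38.p6, 250 bases before to 50 after a gene's start, first listed window of a gene) were found for 36 of the 44 genes. TTTNNCGC, a simple form of the E2F motif, was searched on both strands. It occurred in 16 of these 36 windows (44.4%), against 1109 of 17492 windows of protein-coding genes (6.3%). The NF-Y box CCAAT occurred in 55.6% of the windows of replication genes and 39.0% of all, the GC box GGGCGG in 27 of 36 and 46.3%, and TTTGAA in 13.9% and 16.5%, each on both strands. Matches can share letters, whether of different motifs or of the same motif on opposite strands, and each was counted. These are matches of letters, not sites of binding. The windows of 4 genes are printed because these genes had the largest differences: Mcm3 within the MCM2-7 ring and Pola1 among all genes of the set between the lines, Ccne1 with MG132 in both lines, and Pole2 in the difference of the MG132 responses. All 4 are on the minus strand and are written 5′ to 3′ in the direction of the gene, Mcm3 from chr1:20820263-20820562, Pola1 from chrX:93632106-93632405, Ccne1 from chr7:38107441-38107740 and Pole2 from chr12:69228141-69228440. Capitals mark TTTNNCGC on either strand.
Mcm3: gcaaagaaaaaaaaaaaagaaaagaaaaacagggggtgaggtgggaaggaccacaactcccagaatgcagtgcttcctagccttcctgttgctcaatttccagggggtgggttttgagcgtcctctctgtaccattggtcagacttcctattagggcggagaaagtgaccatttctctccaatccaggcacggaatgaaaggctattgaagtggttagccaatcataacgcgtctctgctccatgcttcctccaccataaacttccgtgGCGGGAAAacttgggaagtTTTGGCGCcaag
Pola1: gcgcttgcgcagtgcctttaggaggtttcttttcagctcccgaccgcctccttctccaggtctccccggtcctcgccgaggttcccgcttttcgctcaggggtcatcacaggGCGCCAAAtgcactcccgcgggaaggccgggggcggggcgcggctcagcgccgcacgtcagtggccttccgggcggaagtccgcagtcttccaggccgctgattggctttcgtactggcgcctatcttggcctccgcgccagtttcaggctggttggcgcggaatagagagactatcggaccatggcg
Ccne1: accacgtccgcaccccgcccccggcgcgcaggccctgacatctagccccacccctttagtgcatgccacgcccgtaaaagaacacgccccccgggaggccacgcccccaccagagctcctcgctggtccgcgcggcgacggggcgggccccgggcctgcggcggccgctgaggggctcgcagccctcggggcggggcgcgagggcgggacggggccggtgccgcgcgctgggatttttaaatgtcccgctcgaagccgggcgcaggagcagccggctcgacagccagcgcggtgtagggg
Pole2: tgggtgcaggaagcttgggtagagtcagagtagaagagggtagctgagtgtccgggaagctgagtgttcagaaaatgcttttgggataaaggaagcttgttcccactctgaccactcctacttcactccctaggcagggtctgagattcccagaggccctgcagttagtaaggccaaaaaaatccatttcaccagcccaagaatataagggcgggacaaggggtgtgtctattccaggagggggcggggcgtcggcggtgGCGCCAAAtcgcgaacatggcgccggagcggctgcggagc
The Mcm3 window held 2 matches, starting at positions 20 and 39 counted from the start site, and the Pola1 and Pole2 windows held 1 each, starting at -138 and 11. The Ccne1 window held none, and 4 GC boxes. Among the other MCM genes, Mcm6 had 3 matches, Mcm5 and Mcm7 had 2 each, Mcm8 had 1, Mcm2 and Mcm10 had 0, and Mcm4 had no window.

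**Figure D1:**
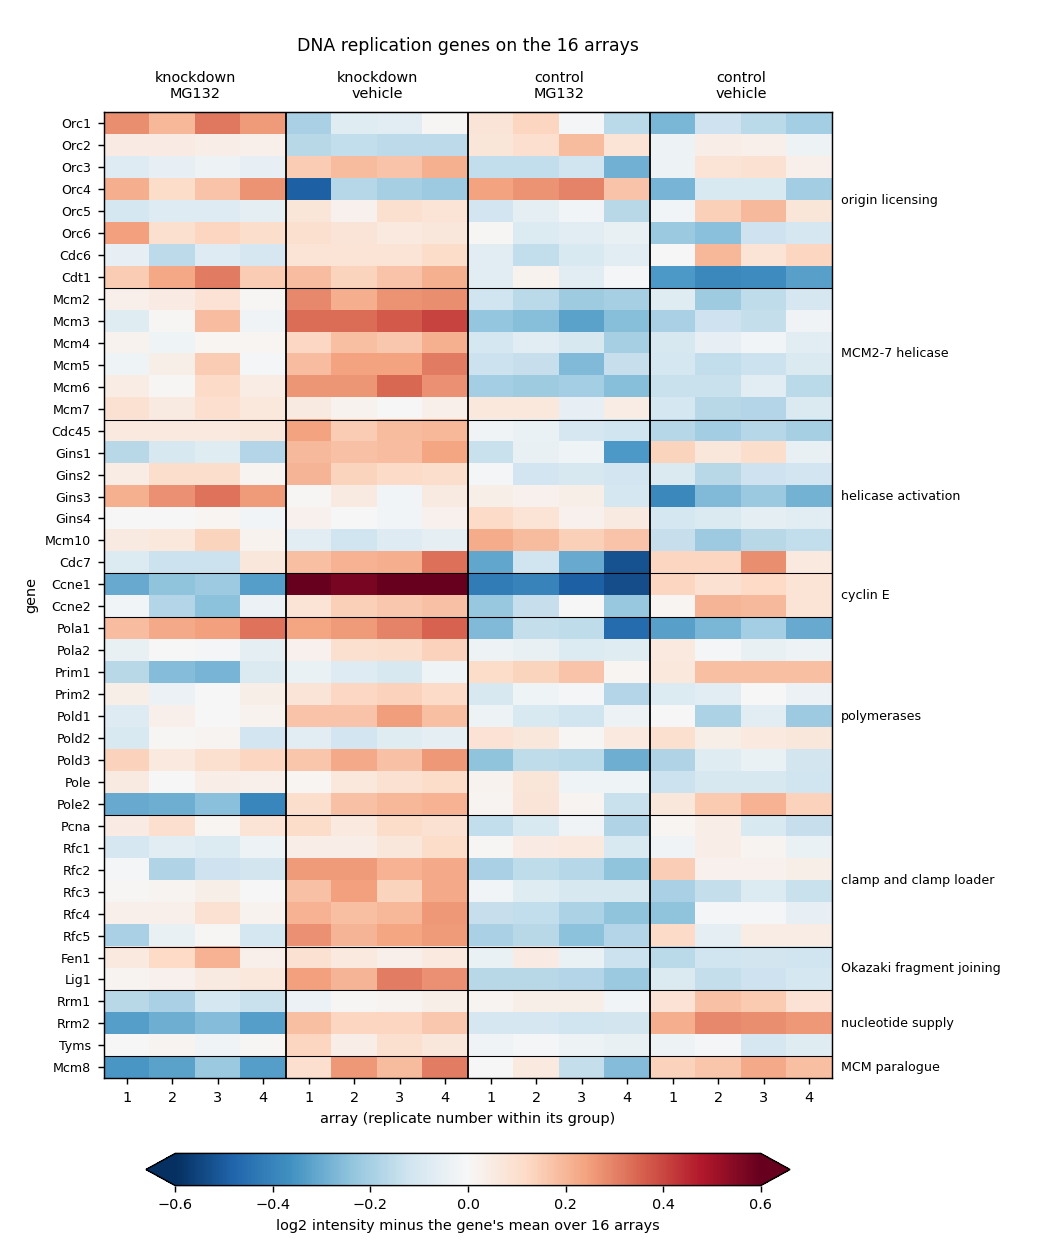
Log2 intensity of the 44 replication genes (rows, by role) on the 16 arrays (columns, 4 per group), each minus the gene's mean over all arrays, with red above and blue below it. Most rows of the MCM2-7 ring and the clamp loader are reddest in knockdown cells with vehicle, and Ccne1 goes beyond the colour scale there.

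The first comparison asked how the knockdown line differed from the control line without proteasome inhibition. With vehicle, most of the machinery was more highly expressed in knockdown cells. Of the 44 genes 29 were higher and 5 were lower, 34 in all, where 39.4% of all genes were called (21.5% higher and 17.9% lower). The median log2 difference was 0.16 over the set and -0.01 over all genes, and single differences ranged from -0.21 to 0.56. Replication genes are bright on these arrays, with 38 of 44 above the 75th percentile of all genes' means, and of the 4984 genes above it 64.3% were called, 32.6% higher and 31.6% lower. All 6 genes of the MCM2-7 ring rose, with 5 of 7 helicase activation genes, 5 of 6 clamp and clamp loader genes, both Okazaki fragment genes and 6 of 9 polymerase genes. The 5 that were lower were Orc2, Prim1, Pold2, Rrm1 and Rrm2. For 29 genes all 4 knockdown arrays lay above all 4 control arrays and for 5 below them, which was so for 38.7% of all genes in either direction, 21.4% above and 17.3% below.

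With MG132 in both lines, fewer replication genes were called between the lines. In knockdown cells 20 genes were higher and 7 lower than in control cells, 27 in all, where 38.1% of all genes were called (17.7% higher and 20.3% lower) and 62% of the bright ones (30.6% higher and 31.5% lower). The share of the set called, 61.4%, was close to that of bright genes. The median log2 difference was 0.08 over the set and -0.00 over all genes. The arrays did not overlap for 19 genes higher and 7 lower (34.7% of all genes in either direction, 16.6% higher and 18.1% lower). The 2 line comparisons share no arrays. Under both treatments 18 genes were higher in knockdown cells, where 14.1% of all genes and 23.6% of the bright ones were, and 4, Prim1, Pold2, Rrm1 and Rrm2, were lower (13.4% and 23.2%). Another 10, Mcm7, Gins4, Pola2, Prim2, Pold1, Pole, Rfc2, Rfc3, Rfc5 and Tyms, were called higher with vehicle and not called with MG132 (6.79% of all genes and 8.43% of the bright ones). The change of the line difference between treatments equals the difference of the MG132 responses tested below. Of these 10 genes it passed for Gins4, Pold1, Pole and Rfc3 and not for the others. Mcm10 was called in opposite directions (0.978% and 1.65%), but with each array centred on its median its difference with MG132 was -0.10 and not called (limma adjusted p = 0.0621), and after a second quantile normalization its difference with vehicle was 0.07 and not called (limma adjusted p = 0.0829). Under the same centring the difference of Pold2 with MG132 was -0.09 and not called (limma adjusted p = 0.131). No line difference of a replication gene exceeded 1.5-fold.

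**Figure D2:**
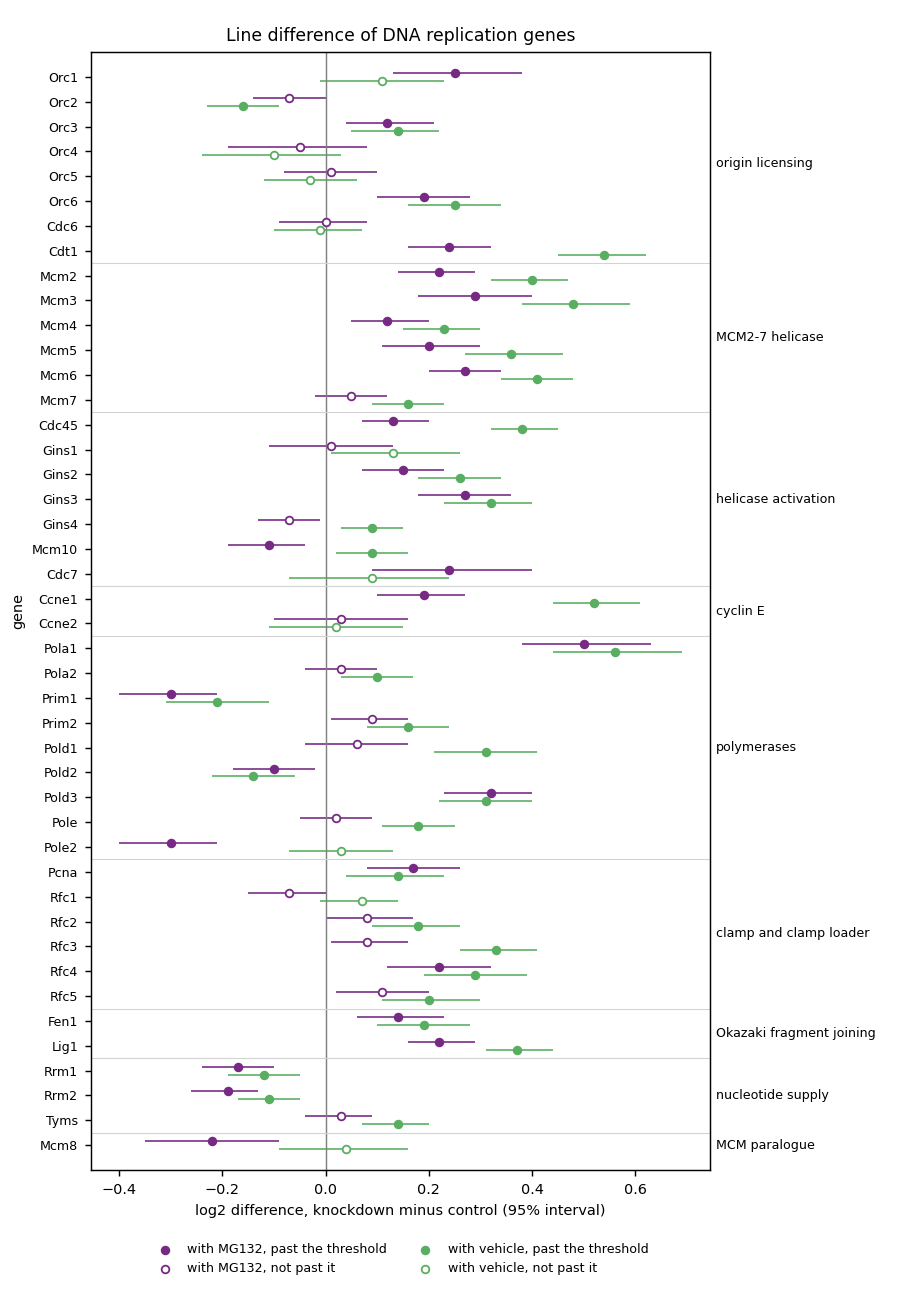
Log2 difference, knockdown minus control, of each replication gene (rows, by role) with MG132 (purple) and with vehicle (green), n = 4 arrays per group. Points are differences with 95% intervals, filled where the gene passed the threshold. Mcm2 to Mcm6 and Pola1 lie right of 0 under both treatments, and Prim1, Rrm1 and Rrm2 lie left of it.

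The next comparisons asked what MG132 did within each line. In knockdown cells 5 genes rose and 28 fell, 33 in all, where 40.7% of all genes were called (16.4% higher and 24.3% lower) and 66.2% of the bright ones (29.7% higher and 36.5% lower). In control cells 11 rose and 16 fell, 27 in all, against 35.8% of all genes (16.8% higher and 19% lower) and 63.8% of the bright ones (30.3% higher and 33.5% lower). The share called in control cells, 61.4%, was close to that of bright genes. The median log2 difference was -0.14 in knockdown cells and -0.05 in control cells, and 0.03 over all genes in either line. In knockdown cells the MG132 arrays lay above all vehicle arrays for 5 genes and below for 28 (38.5% of all genes in either direction, 15.1% above and 23.4% below), and in control cells for 10 and 13 (32.9%, 15% above and 17.9% below). With each array centred on its own median, the control response was called for 6 genes higher and 18 lower, in place of 11 and 16, and the median difference was -0.10 in control cells and -0.20 in knockdown cells. The line comparison with vehicle and the knockdown response both use the 4 knockdown vehicle arrays, and the comparison with MG132 shares arrays with both responses in the same way.

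The 2 responses share no arrays. In both lines MG132 raised Orc1, Orc2, Orc4, Gins3 and Mcm10, 5 genes, where 9.55% of all genes were called higher in both. It lowered 15 in both (15.6% of all genes), among them both E-type cyclins, Rrm1 and Rrm2, Rfc2 and Rfc5, Pole2, Mcm3, Mcm6 and Mcm8. Cdc45 alone was called in opposite directions (1.04% of all genes). These shares of all genes were not matched for brightness, and bright genes were called more often in each response. Under the same centring the control response of Cdc45 was 0.07 and not called (limma adjusted p = 0.191). Among these responses only that of Ccne1 in knockdown cells was past 1.5-fold.

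**Figure D3:**
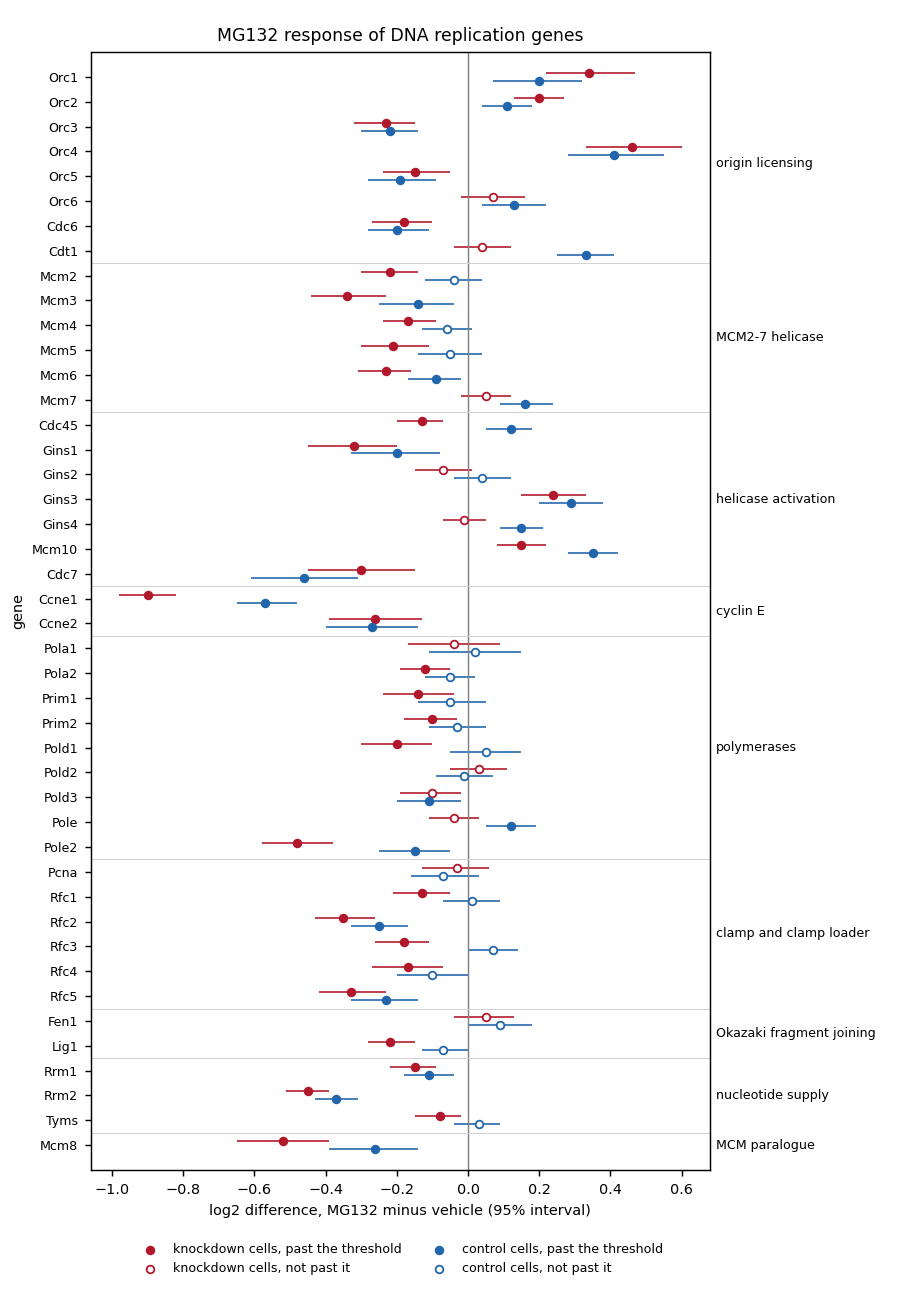
Log2 difference, MG132 minus vehicle, of each replication gene (rows, by role) in knockdown cells (red) and in control cells (blue), n = 4 arrays per group. Points are differences with 95% intervals, filled where the gene passed the threshold. Ccne1 is farthest left in both lines and Orc4 farthest right, and most red points lie left of the blue ones.

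**Figure D4:**
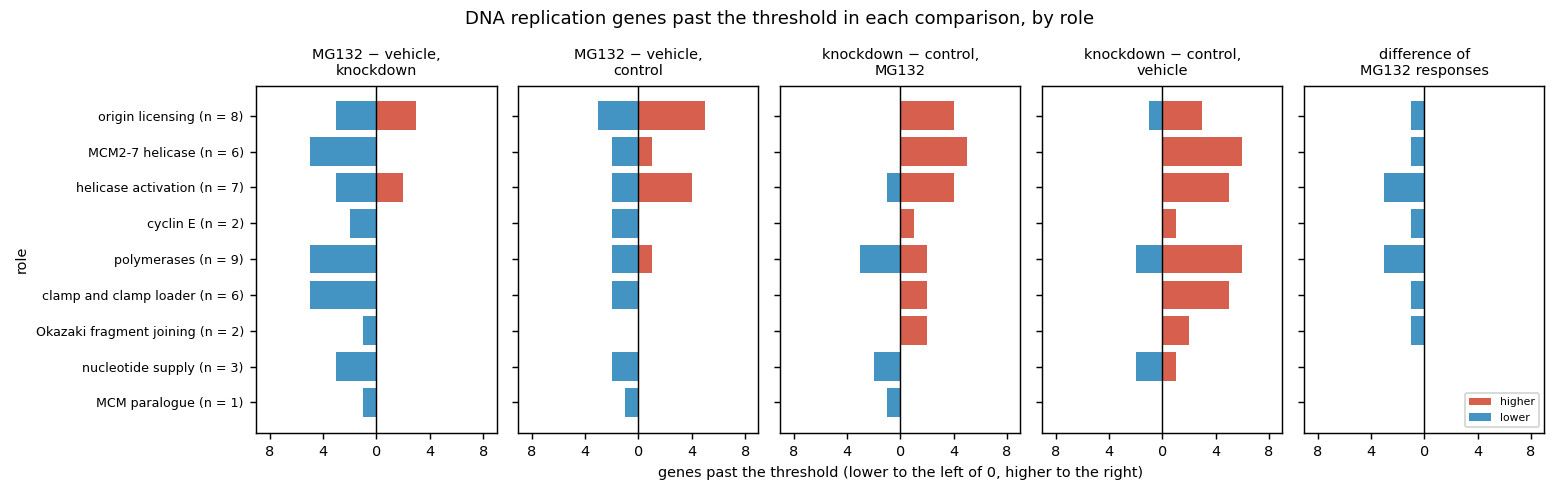
Number of replication genes past the threshold in each of the 5 comparisons (panels) by role (rows, with the number of genes), lower to the left of 0 and higher to the right. All 6 MCM2-7 genes are higher in knockdown cells with vehicle, and 5 of 6 are lower with MG132 in those cells.

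The counts by role below stand against the shares of all genes and of bright genes given above for each comparison. Among the 8 licensing genes, MG132 raised 3 and lowered 3 in knockdown cells and raised 5 and lowered 3 in control cells. Cdt1, which brings the helicase ring to origins, read 11.86, 11.94, 12.02 and 11.86 in knockdown cells with MG132, 11.89, 11.84, 11.88 and 11.92 in knockdown cells with vehicle, 11.64, 11.73, 11.64 and 11.70 in control cells with MG132 and 11.36, 11.32, 11.33 and 11.38 in control cells with vehicle. All 8 knockdown arrays lay above all control arrays, and the control vehicle arrays lay lowest. Knockdown cells were higher by 0.24 ± 0.04 with MG132 and by 0.54 ± 0.04 with vehicle (limma adjusted p = 6.62e-05 and 4.86e-09). MG132 left a difference of 0.04 ± 0.04 in knockdown cells, which did not pass (limma adjusted p = 0.462), and raised Cdt1 by 0.33 ± 0.04 in control cells (limma adjusted p = 2.69e-06).

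Orc4, a subunit of the origin recognition complex, was the licensing gene with the largest MG132 response. It read 11.08, 10.97, 11.03 and 11.13 in knockdown cells with MG132 and 10.37, 10.69, 10.66 and 10.64 with vehicle, and 11.10, 11.13, 11.16 and 11.03 in control cells with MG132 and 10.58, 10.77, 10.77 and 10.65 with vehicle. All MG132 arrays lay above all vehicle arrays, and the first knockdown vehicle array lay well below the other 3. Orc4 rose by 0.46 ± 0.06 in knockdown cells and by 0.41 ± 0.06 in control cells (limma adjusted p = 1.59e-05 and 6.1e-05), while its line differences of -0.05 with MG132 and -0.10 with vehicle did not pass. Orc1, the ATPase subunit of the complex, rose by 0.34 in knockdown cells and 0.20 in control cells, and Orc2 by 0.20 and 0.11. Orc3 fell in both, by 0.23 in knockdown cells and by 0.22 ± 0.04 in control cells (limma adjusted p = 0.000215 in control cells). Orc5 fell as well, by 0.15 and 0.19, and so did Cdc6, the loader that acts with Cdt1, by 0.18 and 0.20. The subunits of this complex thus did not move one way. Orc6 was higher in knockdown cells under both treatments, by 0.19 with MG132 and 0.25 with vehicle.

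The 6 MCM2-7 genes, which encode the ring-shaped replicative helicase, were all higher in knockdown cells with vehicle (0.16 to 0.48, median 0.38), and 5 of 6 were with MG132 (0.05 to 0.29 over all 6, median 0.21). Mcm3 read 11.41, 11.49, 11.67 and 11.46 in knockdown cells with MG132, 11.82, 11.82, 11.85 and 11.89 in knockdown cells with vehicle, 11.25, 11.23, 11.16 and 11.23 in control cells with MG132 and 11.29, 11.36, 11.34 and 11.46 in control cells with vehicle. The 4 knockdown vehicle arrays lay above all others, and the third knockdown MG132 array stood above the other 3 of its group. Knockdown cells were higher by 0.48 ± 0.05 with vehicle, 1.40-fold (limma adjusted p = 4.45e-07). Mcm6 read 11.98, 11.94, 12.05 and 11.98 in knockdown cells with MG132, 12.20, 12.20, 12.28 and 12.21 in knockdown cells with vehicle, 11.73, 11.72, 11.73 and 11.68 in control cells with MG132 and 11.80, 11.80, 11.87 and 11.77 in control cells with vehicle. Its 4 groups did not overlap and stood in the order knockdown vehicle, knockdown MG132, control vehicle, control MG132, from high to low. The line difference of Mcm6 was 0.27 ± 0.03 with MG132 and 0.41 ± 0.03 with vehicle (limma adjusted p = 4.41e-06 and 2.49e-08). Mcm2 was higher in knockdown cells by 0.22 ± 0.04 with MG132 and 0.40 ± 0.04 with vehicle (limma adjusted p = 9.81e-05 and 8.54e-08), and Mcm5 by 0.20 and 0.36 ± 0.04 (limma adjusted p = 2.94e-06 with vehicle).

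MG132 lowered 5 of the 6 ring genes in knockdown cells. Mcm3 fell by 0.34 ± 0.05 and Mcm6 by 0.23 ± 0.03 there (limma adjusted p = 3.04e-05 and 2.29e-05), followed by Mcm2 (-0.22 ± 0.04), Mcm5 (-0.21) and Mcm4 (-0.17). In control cells Mcm3 (-0.14) and Mcm6 (-0.09) fell, and the differences of Mcm2, Mcm4 and Mcm5 (-0.06 to -0.04) did not pass. Mcm7 went the other way: it rose by 0.16 in control cells, and its difference of 0.05 in knockdown cells did not pass. It read 12.52, 12.48, 12.53 and 12.49 in knockdown cells with MG132, 12.48, 12.45, 12.43 and 12.46 with vehicle, 12.49, 12.49, 12.38 and 12.47 in control cells with MG132 and 12.32, 12.26, 12.25 and 12.34 with vehicle. The control vehicle arrays were the lowest of Mcm7 and did not overlap with any other group, while the other 3 groups overlapped. Of the 6 ring genes, the difference of the MG132 responses passed for Mcm2 alone (limma adjusted p = 0.0253). For the others it did not pass (0.0634 to 0.179).

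Of the 7 helicase activation genes, 5 were called higher in knockdown cells with vehicle and none lower. Cdc45, which completes the active helicase with the GINS complex, read 10.84, 10.84, 10.84 and 10.85 in knockdown cells with MG132, 11.02, 10.93, 10.97 and 10.98 in knockdown cells with vehicle, 10.76, 10.74, 10.68 and 10.66 in control cells with MG132 and 10.61, 10.57, 10.61 and 10.58 in control cells with vehicle. The 4 groups did not overlap. Cdc45 fell by 0.13 ± 0.03 with MG132 in knockdown cells and rose by 0.12 ± 0.03 in control cells (limma adjusted p = 0.0024 and 0.00667). Its line difference was 0.13 ± 0.03 with MG132 and 0.38 ± 0.03 with vehicle (limma adjusted p = 0.00244 and 2.33e-08).

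The 4 GINS genes, subunits of 1 complex, differed among themselves. Gins3 rose with MG132 in both lines, by 0.24 in knockdown cells and 0.29 ± 0.04 in control cells (limma adjusted p = 3.1e-05 in control cells). It read 11.09, 11.15, 11.20 and 11.13 in knockdown cells with MG132, 10.88, 10.93, 10.86 and 10.93 with vehicle, 10.91, 10.90, 10.91 and 10.77 in control cells with MG132 and 10.49, 10.61, 10.65 and 10.59 with vehicle. The knockdown MG132 arrays were the highest of Gins3 and the control vehicle arrays the lowest, with no overlap between either and the rest. Gins1 fell in both lines, by 0.32 in knockdown cells and 0.20 in control cells. Its control difference was -0.11 and not called without control vehicle 1, knockdown vehicle 1, control MG132 4 and knockdown MG132 2 (limma adjusted p = 0.107), and not called in a fit of the control arrays alone (limma adjusted p = 0.0545). Gins2 differed by -0.07 in knockdown cells and 0.04 in control cells, neither past the threshold. Gins4 differed by -0.01 ± 0.03 in knockdown cells, where it was not called, and rose by 0.15 ± 0.03 in control cells.

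Mcm10, which helps start the assembled helicase, rose by 0.15 ± 0.03 in knockdown cells and by 0.35 ± 0.03 in control cells (limma adjusted p = 0.00154 and 2.06e-07). It read 11.14, 11.15, 11.22 and 11.11 in knockdown cells with MG132, 11.02, 10.97, 11.01 and 11.03 with vehicle, 11.31, 11.28, 11.23 and 11.26 in control cells with MG132 and 10.95, 10.87, 10.92 and 10.94 with vehicle. All MG132 arrays lay above all vehicle arrays, and the control line held both the highest and the lowest group. Cdc7, the kinase that phosphorylates the MCM ring, fell by 0.30 in knockdown cells and by 0.46 ± 0.07 in control cells (limma adjusted p = 5.31e-05 in control cells). The control MG132 arrays of Cdc7, at 8.80, 8.99, 8.81 and 8.59, were widely spread, against 9.24, 9.24, 9.39 and 9.17 in control cells with vehicle. The knockdown arrays read 9.03, 8.98, 8.98 and 9.18 with MG132 and 9.29, 9.32, 9.33 and 9.44 with vehicle, and in neither line did the treatments overlap.

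Ccne1, which encodes cyclin E1, showed the largest MG132 response of the set in both lines. It read 10.85, 10.91, 10.93 and 10.82 in knockdown cells with MG132, 11.76, 11.72, 11.77 and 11.86 in knockdown cells with vehicle, 10.73, 10.75, 10.66 and 10.62 in control cells with MG132 and 11.28, 11.24, 11.27 and 11.23 in control cells with vehicle. The 4 groups did not overlap, and the highest was knockdown vehicle. With MG132 Ccne1 fell by 0.90 ± 0.04 in knockdown cells, a 1.87-fold lower intensity (limma adjusted p = 2.52e-11). In control cells it fell by 0.57 ± 0.04, 1.48-fold (limma adjusted p = 5.97e-09). Knockdown cells were higher by 0.19 ± 0.04 with MG132 and by 0.52 ± 0.04 with vehicle (limma adjusted p = 0.000934 and 8.38e-09).

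Ccne2, the gene of the second E-type cyclin, differed from Ccne1. It read 11.09, 10.93, 10.86 and 11.07 in knockdown cells with MG132, 11.19, 11.25, 11.27 and 11.28 in knockdown cells with vehicle, 10.88, 10.97, 11.11 and 10.88 in control cells with MG132 and 11.12, 11.31, 11.30 and 11.19 in control cells with vehicle. The MG132 arrays lay below the vehicle arrays in each line, and the lines overlapped under both treatments. Ccne2 fell by 0.26 in knockdown cells and 0.27 in control cells, with line differences of 0.03 and 0.02 with MG132 and vehicle that did not pass. Their 95% intervals were -0.10 to 0.16 and -0.11 to 0.15.

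**Figure D5:**
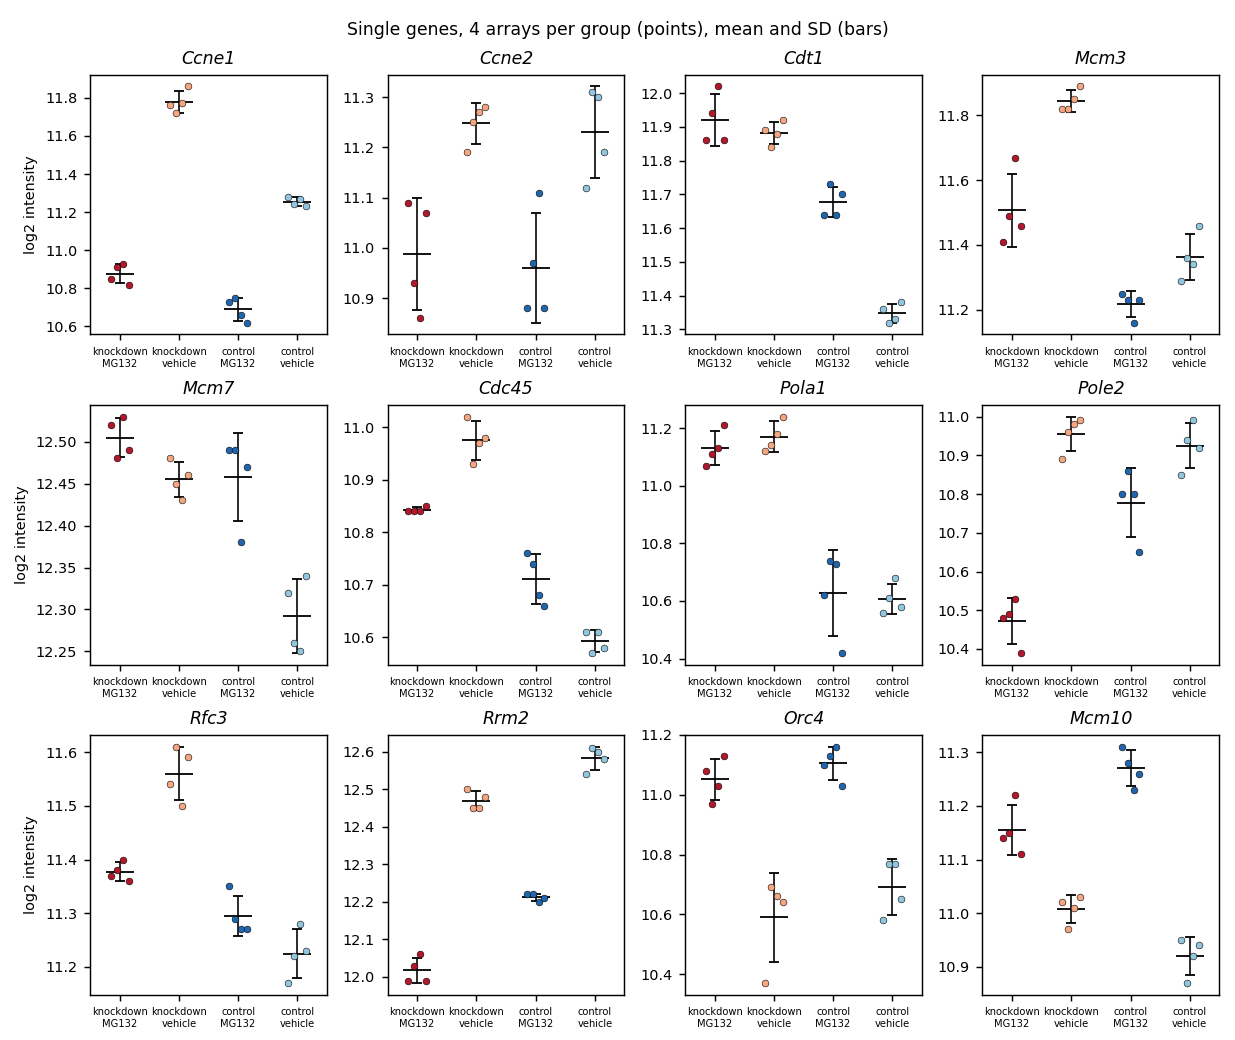
Log2 intensity of 12 replication genes (panels) on the 4 arrays of each group (points), with the mean and SD (bars); each panel has its own axis. Knockdown vehicle is the highest group for Ccne1, Mcm3, Cdc45 and Rfc3, the lines separate for Pola1 and Cdt1, and knockdown MG132 is the lowest group for Pole2 and Rrm2.

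Of the 9 polymerase and primase genes, 5 fell and none rose with MG132 in knockdown cells, and 2 fell and 1 rose in control cells. These were 55.6% and 33.3% of the 9, where 66.2% and 63.8% of the bright genes and 40.7% and 35.8% of all genes were called. Pola1, the catalytic subunit of polymerase alpha, had the largest line difference with vehicle in the set and no called MG132 response. It read 11.07, 11.11, 11.13 and 11.21 in knockdown cells with MG132, 11.12, 11.14, 11.18 and 11.24 in knockdown cells with vehicle, 10.62, 10.74, 10.73 and 10.42 in control cells with MG132 and 10.56, 10.61, 10.68 and 10.58 in control cells with vehicle. All 8 knockdown arrays lay above all 8 control arrays, and the treatments overlapped in both lines. Knockdown cells were higher by 0.50 ± 0.06 with MG132 and by 0.56 ± 0.06 with vehicle, 1.42-fold and 1.48-fold (limma adjusted p = 2.22e-06 and 5.09e-07). The MG132 responses were -0.04 in knockdown cells and 0.02 in control cells, with 95% intervals of -0.17 to 0.09 and -0.11 to 0.15.

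Pola2, the partner subunit of Pola1, differed between the lines by 0.03 with MG132, not called, and 0.10 with vehicle, called. Prim1, which makes the RNA primers within the same complex, was lower in knockdown cells. It read 11.35, 11.26, 11.24 and 11.43 in knockdown cells with MG132, 11.48, 11.44, 11.42 and 11.49 in knockdown cells with vehicle, 11.63, 11.65, 11.69 and 11.53 in control cells with MG132 and 11.58, 11.70, 11.70 and 11.70 in control cells with vehicle. All knockdown arrays lay below all control arrays. The difference was -0.30 ± 0.05 with MG132 and -0.21 with vehicle (limma adjusted p = 4.18e-05 with MG132). Prim2, the large primase subunit, went the other way with vehicle, where its called difference was 0.16.

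Pole2, a subunit of polymerase epsilon, fell by 0.48 ± 0.05 with MG132 in knockdown cells and by 0.15 ± 0.05 in control cells (limma adjusted p = 2.44e-07 and 0.0197). It read 10.48, 10.49, 10.53 and 10.39 in knockdown cells with MG132, 10.89, 10.96, 10.98 and 10.99 in knockdown cells with vehicle, 10.80, 10.86, 10.80 and 10.65 in control cells with MG132 and 10.85, 10.94, 10.99 and 10.92 in control cells with vehicle. The knockdown MG132 arrays lay below all others, and the vehicle arrays of the lines overlapped. Knockdown cells were lower with MG132, with a difference of -0.30 ± 0.05 (limma adjusted p = 4.11e-05), and the difference with vehicle was 0.03 ± 0.05 and did not pass. Pole, the catalytic subunit of the same polymerase, rose in control cells by 0.12 ± 0.03, and its difference of -0.04 ± 0.03 in knockdown cells did not pass. With each array centred on its median, the control difference of Pole was 0.07 and not called (limma adjusted p = 0.26).

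For polymerase delta, the catalytic subunit gene Pold1 fell in knockdown cells by 0.20 ± 0.05 (limma adjusted p = 0.00202), and its difference of 0.05 ± 0.05 in control cells did not pass. Pold3, an accessory subunit, was higher in knockdown cells by 0.32 ± 0.04 with MG132 and 0.31 with vehicle (limma adjusted p = 5.78e-06 with MG132). Pold3 read 11.21, 11.13, 11.17 and 11.20 in knockdown cells with MG132 and 10.83, 10.92, 10.91 and 10.78 in control cells with MG132, against 11.24, 11.30, 11.25 and 11.33 in knockdown cells with vehicle and 10.89, 11.00, 11.03 and 10.96 in control cells with vehicle. All 8 knockdown arrays lay above all 8 control arrays. Pold2, a further subunit, was lower in knockdown cells, with differences of -0.10 with MG132 and -0.14 with vehicle, and had no called response to MG132.

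Pcna, the sliding clamp, was higher in knockdown cells by 0.17 with MG132 and 0.14 with vehicle, and its MG132 responses of -0.03 in knockdown cells and -0.07 in control cells did not pass. All 5 clamp loader genes fell with MG132 in knockdown cells, and Rfc2 and Rfc5 also fell in control cells. Rfc2 fell by 0.35 ± 0.04 in knockdown cells and 0.25 ± 0.04 in control cells (limma adjusted p = 1.84e-06 and 6.98e-05), and Rfc5 by 0.33 ± 0.04 and 0.23 ± 0.04 (limma adjusted p = 1.06e-05 and 0.000404). Rfc3 read 11.37, 11.38, 11.40 and 11.36 in knockdown cells with MG132, 11.54, 11.61, 11.50 and 11.59 in knockdown cells with vehicle, 11.35, 11.29, 11.27 and 11.27 in control cells with MG132 and 11.17, 11.22, 11.28 and 11.23 in control cells with vehicle. The knockdown vehicle arrays of Rfc3 lay above all others, and the control treatments overlapped. Rfc3 fell by 0.18 ± 0.03 in knockdown cells, differed by 0.07 ± 0.03 in control cells without passing, and was higher in knockdown cells with vehicle by 0.33 ± 0.03 (limma adjusted p = 3.82e-07). Rfc4 was higher in knockdown cells by 0.22 with MG132 and 0.29 with vehicle. Rfc1, the large subunit, fell by 0.13 in knockdown cells and differed by 0.01 in control cells, where it was not called.

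Lig1, the ligase that joins Okazaki fragments, read 11.29, 11.30, 11.33 and 11.34 in knockdown cells with MG132, 11.52, 11.48, 11.58 and 11.55 in knockdown cells with vehicle, 11.11, 11.11, 11.10 and 11.05 in control cells with MG132 and 11.19, 11.13, 11.15 and 11.17 in control cells with vehicle. The 4 groups did not overlap, with knockdown vehicle highest and control MG132 lowest. Knockdown cells were higher by 0.22 ± 0.03 with MG132 and 0.37 ± 0.03 with vehicle (limma adjusted p = 1.54e-05 and 2.89e-08). With MG132 Lig1 fell by 0.22 ± 0.03 in knockdown cells (limma adjusted p = 1.99e-05), and the difference of -0.07 ± 0.03 in control cells did not pass (limma adjusted p = 0.108). Fen1, the nuclease that trims the fragments, was higher in knockdown cells by 0.14 with MG132 and 0.19 with vehicle, with no called MG132 response.

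The 3 nucleotide supply genes fell with MG132 in knockdown cells, and Rrm1 and Rrm2, the subunits of ribonucleotide reductase, also fell in control cells. Rrm2 read 11.99, 12.03, 12.06 and 11.99 in knockdown cells with MG132, 12.50, 12.45, 12.45 and 12.48 in knockdown cells with vehicle, 12.22, 12.22, 12.20 and 12.21 in control cells with MG132 and 12.54, 12.61, 12.60 and 12.58 in control cells with vehicle. The 4 groups did not overlap, and each knockdown group lay below the control group of the same treatment. Rrm2 fell by 0.45 ± 0.03 in knockdown cells and 0.37 ± 0.03 in control cells (limma adjusted p = 2.32e-09 and 2.64e-08). Its line difference was -0.19 ± 0.03 with MG132 and -0.11 with vehicle (limma adjusted p = 3.57e-05 with MG132). Rrm1 was lower in knockdown cells as well, with differences of -0.17 with MG132 and -0.12 with vehicle, so both subunits stood apart in direction from the helicase genes in the line comparisons. With each array centred on its median, the vehicle differences of Rrm1 and Rrm2 were -0.10 and -0.09 and missed the threshold (limma adjusted p = 0.0891 and 0.0678). Tyms, thymidylate synthase, was higher in knockdown cells with vehicle by 0.14.

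Mcm8, a paralogue of the ring subunits known for a part in recombination, read 8.82, 8.85, 8.95 and 8.84 in knockdown cells with MG132, 9.27, 9.43, 9.36 and 9.48 in knockdown cells with vehicle, 9.17, 9.23, 9.03 and 8.91 in control cells with MG132 and 9.31, 9.34, 9.40 and 9.35 in control cells with vehicle. The knockdown MG132 arrays were lowest, apart from 1 control MG132 array that lay among them. Mcm8 fell by 0.52 ± 0.06 in knockdown cells and by 0.26 in control cells (limma adjusted p = 2.31e-06 in knockdown cells). Between the lines with MG132 it was lower in knockdown cells, with a difference of -0.22.

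The last comparison tested the difference of the 2 MG132 responses, knockdown minus control, which is the part of the response that differed between the lines. It used all 16 arrays. Of the 44 genes 11 were called, all 11 lower and 0 higher (13 lower and 1 higher, Orc1, after a second quantile normalization), where 14.6% of all genes were called (4.45% higher and 10.1% lower) and 19.8% of the bright ones (8.81% higher and 11% lower). The response was more negative in knockdown cells for 34 of 44 genes (77.3%), against 52.6% of all genes, and the median difference was -0.10 over the set and -0.01 over all genes. The 11 genes came from 7 of the 9 roles: Cdt1 in licensing, Mcm2 in the ring, Cdc45, Gins4 and Mcm10 in helicase activation, Ccne1 of the E-type cyclins, Rfc3 in the clamp loader, Lig1 in Okazaki fragment joining, and Pold1, Pole and Pole2 among the polymerases.

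These 11 differences took several forms. Ccne1 and Pole2 fell in both lines, and by more in knockdown cells (difference -0.33 ± 0.06 and -0.34 ± 0.07, limma adjusted p = 0.000743 and 0.00245). Cdc45 fell in knockdown cells and rose in control cells (difference -0.25 ± 0.04, limma adjusted p = 0.00116). Mcm10 rose in both lines, and by less in knockdown cells (-0.20 ± 0.05, limma adjusted p = 0.00754). Cdt1, Gins4 and Pole rose in control cells and were not called in knockdown cells, and the difference itself passed (Cdt1 -0.29 ± 0.05, Gins4 -0.16 ± 0.04 and Pole -0.16 ± 0.05, limma adjusted p = 0.00175, 0.017 and 0.029). Mcm2, Pold1, Rfc3 and Lig1 fell in knockdown cells without a call in control cells, and differed by -0.18 ± 0.05, -0.25 ± 0.07, -0.25 ± 0.05 and -0.15 ± 0.04 (limma adjusted p = 0.0253, 0.0154, 0.0021 and 0.0295).

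In all, 12 genes were called lower with MG132 in knockdown cells and not called in control cells, where 7.97% of all genes and 8.91% of the bright ones were. Of these the difference of the responses passed for the 4 just named and not for Mcm4, Mcm5, Pola2, Prim1, Prim2, Rfc1, Rfc4 and Tyms (-0.16 to -0.07). For Ccne2 and Rrm2, which fell in both lines, the differences of the responses were 0.01 and -0.08, with 95% intervals of -0.17 to 0.19 and -0.17 to 0.01. For Orc4 the interval was -0.14 to 0.24 and for Pola1 -0.24 to 0.12.

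Some calls were lost when a single array was left out. Several of these lay close to the threshold in the full fit. Examples were Pold3 in the control response, Tyms in the knockdown response and Mcm10 between the lines with vehicle (limma adjusted p = 0.0443, 0.0406 and 0.0452). In the knockdown response, Prim1 lost its call without knockdown vehicle 4 or knockdown MG132 2 or 3 (limma adjusted p 0.0696 to 0.0862), Prim2 without any of knockdown vehicle 2, 3 and 4 and knockdown MG132 2 and 3 (0.0655 to 0.0999), and Tyms without any of 8 arrays, which were the knockdown arrays other than vehicle 2 and control MG132 1 (0.0513 to 0.0994). In the control response, Orc2 lost it without control MG132 3 (limma adjusted p = 0.0525), Orc6 without control MG132 1 or control vehicle 1 or 2 (0.0614 to 0.0783), Mcm3 without control MG132 3 or control vehicle 2 or 4 (0.0586 to 0.112), Pole2 without control MG132 4 or control vehicle 3 (0.07 and 0.0717) and Rrm1 without control vehicle 2 or 3 (0.0523 and 0.0588). Mcm6 lost it there without any control array but vehicle 4 (0.0505 to 0.134), and Pold3 without any of 10 arrays: control MG132 1 and 4, control vehicle 2, 3 and 4, knockdown MG132 1, 3 and 4 and knockdown vehicle 2 and 3 (0.0509 to 0.142). Between the lines with MG132, Orc3 lost its call without control MG132 4 (limma adjusted p = 0.0579) and Pold2 without knockdown MG132 1 or 4 or control MG132 1, 2 or 4 (0.0548 to 0.118). Between the lines with vehicle, Gins4 lost it without knockdown vehicle 1 or 4 or control vehicle 1 or 2 (limma adjusted p 0.0502 to 0.0595), Pola2 without knockdown vehicle 2, 3 or 4 or control vehicle 3 or 4 (0.0507 to 0.0776) and Pcna without control vehicle 3 or 4 (0.0583 and 0.0759). Mcm10 lost it there without any of 9 arrays: knockdown MG132 1 and 2, knockdown vehicle 1, 3 and 4, control MG132 2 and control vehicle 2, 3 and 4 (0.0518 to 0.139). In the difference of the responses, Mcm2 lost its call without any of knockdown MG132 1 and 4, knockdown vehicle 4, control MG132 1 and control vehicle 2 and 3 (limma adjusted p 0.0502 to 0.06). Pole lost it without any of knockdown MG132 2, knockdown vehicle 3 and 4, control MG132 1 and 2 and control vehicle 4 (0.0538 to 0.0667), and Lig1 without any of knockdown MG132 1 and 2, knockdown vehicle 3 and 4, control MG132 1 and 2 and control vehicle 2 and 3 (0.0556 to 0.0717).

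The arrays of a group were close for these genes: the median SD within a group was 0.051 over the replication genes and 0.079 over all genes. The set is brighter, with a median level of 11.49 against 8.18, and its SD was not compared with that of bright genes. A gradient inside the groups, taken as the leading principal component of every gene's deviations from its group means, held 37.8% of the within-group variance. The set moved along it on some arrays and not on others. On control MG132 4, at its low end, 35 of the 44 genes lay below their group's mean (median deviation -0.046), and on control MG132 2, at its high end, 38 lay above (0.028). On knockdown vehicle 4, also toward the high end, 36 lay above (0.030), while on knockdown vehicle 1, at the low end, 27 lay below (-0.015). Control MG132 3 and control vehicle 2 scored 6.232 and 5.551, yet on each 21 genes lay above and 22 below. Knockdown MG132 4 scored 3.007, with 17 above and 27 below, and control MG132 1 scored -1.007, with 32 above and 11 below. Without control vehicle 1 and 4, knockdown vehicle 1 and control MG132 4, chosen after seeing the data, 33 genes were called in the knockdown response (5 higher, 28 lower), 24 in the control response (9 and 15), 26 between the lines with MG132 (19 and 7), 30 with vehicle (26 and 4) and 11 in the difference of the responses, all 11 lower. Of the 11 reported in that difference 10 were kept, and Gins4 was not (-0.15, limma adjusted p = 0.0714). The gradient's part in the results was not tested further.

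Other genes of the pathway were counted from 7 lists of 136 genes, 130 of which were tested. In these lists 22 genes rose and 71 fell with MG132 in knockdown cells (16.4% and 24.3% of all genes, 29.7% and 36.5% of the bright ones), and 25 rose and 52 fell in control cells (16.8% and 19%, 30.3% and 33.5%). In knockdown cells 35 were higher and 38 lower than in control cells with MG132 (17.7% and 20.3%, 30.6% and 31.5%), and 47 were higher and 26 lower with vehicle (21.5% and 17.9%, 32.6% and 31.6%). In the difference of the responses 10 were higher and 25 lower (4.45% and 10.1%, 8.81% and 11%). The counts of each list below stand against these same shares. The medians in this order were -0.12, -0.06, 0.00, 0.04 and -0.05.

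Among 29 further fork and initiation factors, 5 rose and 18 fell with MG132 in knockdown cells, and 7 rose and 10 fell in control cells. Recql4, a helicase needed for initiation, rose by 0.68 ± 0.04 in knockdown cells and 0.57 ± 0.04 in control cells (limma adjusted p = 8.11e-10 and 6.26e-09). Timeless, which steadies the moving fork, fell by 0.61 ± 0.06 in knockdown cells and had a difference of the responses of -0.44 ± 0.08 (limma adjusted p = 2.95e-07 and 0.00204). Claspin (Clspn), its checkpoint partner, and Dna2, a nuclease of the lagging strand, also differed between the responses, by -0.29 ± 0.06 and -0.26 ± 0.05. In this list the difference of the responses was called for 8 genes, all 8 lower. Between the lines with vehicle, Pold4 and Pole4, small subunits of polymerases delta and epsilon, were higher in knockdown cells by 0.86 ± 0.04 and 0.67 ± 0.03 (limma adjusted p = 1.99e-11 and 3.46e-11), and Donson was lower (difference -0.42 ± 0.04).

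A further list held 14 genes under the heading of licensing inhibitors and replication-coupled destruction. Of these, 1 rose and 5 fell with MG132 in knockdown cells, and 3 rose and 2 fell in control cells. Gmnn, which encodes geminin, the inhibitor of Cdt1, fell by 0.28 ± 0.05 in knockdown cells (limma adjusted p = 0.000139). Skp2, the F-box protein that targets Cdt1 and the kinase inhibitor p27, fell by 0.39 ± 0.03 in knockdown cells and by 0.45 ± 0.03 in control cells. Dtl, the substrate receptor that targets Cdt1 on Pcna, was higher in knockdown cells by 0.27 ± 0.04 with MG132 and 0.32 ± 0.04 with vehicle (limma adjusted p = 2.59e-05 and 2.91e-06).

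Of 17 genes of the E2F and RB family, 6 rose and 8 fell with MG132 in knockdown cells, and 4 rose and 8 fell in control cells. Among those that fell were E2f4 by 0.37 ± 0.03 in knockdown cells and 0.67 ± 0.03 in control cells, E2f8 by 0.59 ± 0.03 and 0.67 ± 0.03, and E2f5 by 0.54 ± 0.04 and 0.49 ± 0.04 (limma adjusted p between 3.32e-11 and 3.2e-08). All 3 are known mostly as repressors. E2f6, also a repressor, differed from them: its responses were 0.37 in knockdown cells and 0.04 in control cells, with a difference of 0.32 ± 0.07 (limma adjusted p = 0.00372). The response of E2f4 differed between the lines by 0.30 ± 0.04 (limma adjusted p = 0.000239), so it fell by less in knockdown cells. E2f4 was also higher in knockdown cells, by 0.65 ± 0.03 with MG132 and 0.35 ± 0.03 with vehicle, and E2f8 was lower, with differences of -0.21 ± 0.03 and -0.28 ± 0.03.

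Of 19 other cell cycle kinase, cyclin and inhibitor genes, 2 rose and 14 fell with MG132 in knockdown cells, and 2 rose and 10 fell in control cells. Ccnd1, cyclin D1, fell by 0.63 ± 0.03 in knockdown cells and 1.03 ± 0.03 in control cells, and the responses differed by 0.40 ± 0.05 (limma adjusted p = 2.13e-05). Ccnd2 was lower in knockdown cells, with differences of -1.41 ± 0.03 with MG132 and -1.64 ± 0.03 with vehicle (limma adjusted p = 2.61e-15 and 2.81e-16), larger in size than any difference of a replication gene. Cdkn2c, an inhibitor of cyclin D kinases, was higher by 0.51 ± 0.04 and 0.73 ± 0.04 in knockdown cells with MG132 and vehicle.

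Of 18 further nucleotide synthesis genes, 3 rose and 10 fell with MG132 in knockdown cells, and 1 rose and 10 fell in control cells. Tk1, thymidine kinase, fell by 0.49 ± 0.04 in knockdown cells and 0.63 ± 0.04 in control cells, and Dtymk, the next enzyme, by 0.52 ± 0.04 and 0.31 ± 0.04. Of 14 chromatin assembly and methylation genes, 3 rose and 5 fell in knockdown cells, and 5 rose and 3 fell in control cells. Pclaf, a Pcna-binding factor, fell by 0.46 ± 0.03 and 0.60 ± 0.03 in knockdown and control cells. Of 19 replication stress checkpoint genes, 2 rose and 11 fell in knockdown cells, and 3 rose and 9 fell in control cells. In that list none was higher and 10 were lower in knockdown cells with MG132, among them Fancd2, the crosslink repair factor (difference -0.62 ± 0.05), and Atrip, the partner of the Atr kinase (difference -0.40 ± 0.04) (limma adjusted p = 6.51e-09 and 1.59e-07).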

How the data were processed

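RNA of 16 plates was measured on Affymetrix arrays. The deposited values are log2 intensities per probe set, made by the authors with RMA in Partek, per the submitters' processing notes, with versions not given in the sources used here. RMA brings arrays towards 1 distribution, so a shift of all genes at once may not be seen. The deposited values were not on exactly 1 distribution, as the arrays' medians ran from 7.71 to 7.82. The number of arrays limits the precision.

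Of 35556 probe sets 21789 carried 1 gene symbol in GEO's platform annotation, 1621 carried several and 12146 were not listed and are not named. The probe set with the highest mean stood for each of 999 genes with several. limma 3.58.1 in R 4.3.3 (lmFit, eBayes, 12 residual degrees of freedom, prior 4.12) was fitted to all 19938 genes as 4 group means, with 2-sided tests and Benjamini-Hochberg adjustment over all genes. The fit was also run on simulated data with few changed genes and noise independent between genes, unlike these data. That run tested the code and not the calls reported here. Full statistics are given in each comparison for at most 10 replication genes, those with the smallest p, and for those past the threshold in the difference of the responses. Other replication genes are given by their differences, and up to 4 genes with the smallest p per comparison are named from each further list.

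The replication genes, the lists and the tests were chosen with earlier results of these data known. Each count was recomputed after a second quantile normalization or median centring, with genes above the 25th percentile of mean intensity, with probe sets averaged per gene, in a fit of only the 2 or 4 groups in question, without moderation, under a trended robust prior, with array weights, with a block for replicate number, and without each array in turn. Promoter windows came from RefSeq (GRCm38.p6). Ccne2, Rfc2, Mcm4, Gins4, Prim2, Gins2, Gins1 and Pole had no entry. Figures were drawn with matplotlib 3.10.9.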

Additional observations from a re-analysis of the deposited data

Results flagged for a closer look

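The MG132 response differed between the lines, by the test of the difference itself, for 11 replication genes. The differences, knockdown minus control, were -0.34 for Pole2, -0.33 for Ccne1, -0.29 for Cdt1, -0.25 each for Cdc45, Pold1 and Rfc3, -0.20 for Mcm10, -0.18 for Mcm2, -0.16 each for Gins4 and Pole, and -0.15 for Lig1.

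Single arrays stood apart from the other 3 of their group in 11 of 180 groups of 4 arrays examined, where chance gives about 5%. The 180 were the 44 replication genes and Atf5 in 4 groups. The check used the rounded values printed here, so the count stands only loosely against that 5%. For Cdc45, Cdc6 and Prim1 the other 3 arrays tied after rounding, and those flags may come from it. In knockdown cells with MG132, array 4 read 10.85 for Cdc45 against 10.84 on the others, and array 3 read 12.71 for Rfc4 against 12.64 to 12.65. In knockdown cells with vehicle, array 1 read 10.37 for Orc4 against 10.64 to 10.69, array 4 read 10.17 for Cdc6 against 10.14, and array 3 read 12.28 for Mcm6 against 12.20 to 12.21 and 10.79 for Pold1 against 10.71 to 10.72. In control cells with MG132, array 3 read 11.91 for Mcm5 against 12.04 to 12.05, and array 4 read 10.77 for Gins3 against 10.90 to 10.91 and 11.05 for Lig1 against 11.10 to 11.11. In control cells with vehicle, array 1 read 11.58 for Prim1 against 11.70 and 10.48 for Rfc2 against 10.36 to 10.37.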

How the results depend on the processing

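No difference of a replication gene that was called changed sign under any alternative run. The difference of the responses was called for 18 replication genes with a trended robust prior, in place of 11. No other total count moved by over 1.5 times. By direction, median centring called 6 genes higher in the control response, in place of 11, and 3 lower between the lines with vehicle, in place of 5. With each of the 16 arrays left out in turn, 30 to 34 genes were called in the knockdown response, 22 to 27 in the control response, 26 to 29 between the lines with MG132, 31 to 35 with vehicle and 8 to 15 in the difference. With the replicate number as a block the counts were 32, 26, 26, 33 and 10 in the same order, and the calls of Tyms (0.06), Pold3 (0.0604), Pold2 (0.0609), Mcm10 (0.0676), and Pole and Lig1 (0.0578 and 0.0524) were lost, the last pair in the difference of the responses, where 9 of 11 were kept. In a fit of only the groups compared the counts were 33, 20, 24 and 33, and in control cells Orc2, Orc6, Mcm6, Gins1, Pold3, Pole2 and Rrm1 were not called (limma adjusted p 0.0525 to 0.11). Arrays of the same number correlated from -0.501 to 0.396 in their deviations from the group means. Whether the numbers pair the samples cannot be told from this range, as arrays of different numbers were not set beside it. Median centring also ended the calls of Orc1, Orc2, Orc6, Cdc45 and Pole in control cells (limma adjusted p = 0.106 for Orc1, 0.191 for Cdc45 and 0.26 for Pole), of Mcm10 in knockdown cells (0.103), of Mcm10 and Pold2 between the lines with MG132 (0.0621 and 0.131), of Rrm1 and Rrm2 with vehicle (0.0891 and 0.0678) and, in the difference of the responses, of Pole and Lig1 (0.0814 and 0.0704). Without control vehicle 1 and 4, knockdown vehicle 1 and control MG132 4, Pold2 was also lost in both line comparisons (0.0714 with MG132 and 0.0603 with vehicle). Fen1 with MG132 (0.054) and Pcna with vehicle (0.115) were lost there too. When the 4 arrays left out were control vehicle 1, knockdown vehicle 1, control MG132 4 and knockdown MG132 2, chosen after seeing the data, the counts were 31, 24, 25, 34 and 13, and Gins4 in the difference of the responses was lost as well (0.0641). The difference of the responses uses all groups, so a fit to only the groups compared is the same fit. The cause of these shifts was not tested.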
